A study of Mus musculus with 14 samples.

Results

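Peaks of histone H3 lysine 9 crotonylation (H3K9cr) and acetylation (H3K9ac) were examined at 49 interferon response genes, taken by symbol from a list of interferon receptors, transcription factors, sensors, regulators and effectors, out of 49943 genes in the RefSeq annotation of the mouse genome GRCm38.p6 (mm10). All 49 genes were found in the annotation. The libraries came from whole kidneys of wild-type (WT) mice and of mice without ACSS2 (ACSS2-/-), an enzyme that makes short-chain acyl-CoA such as acetyl-CoA and crotonyl-CoA, either with no obstruction (control) or after unilateral ureteral obstruction (UUO), a surgical model of kidney fibrosis. H3K9cr was measured in 2 libraries each of WT control, ACSS2-/- control, WT UUO and ACSS2-/- UUO, and H3K9ac in 1 library each of WT control and ACSS2-/- control and 2 each of WT UUO and ACSS2-/- UUO. Per the study's methods the mice were C57BL/6 J and the ACSS2 deletion was made with CRISPR/Cas9 in the whole animal, so that it was present in every cell type of the kidney. The labels give neither age nor time after surgery, and do not say whether replicates came from separate animals, so that p-values measure the spread between these libraries only. Per the study, H3K9ac was profiled in the samples used for H3K9cr, but the labels do not tie a library of one mark to a library of the other.

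Interferons are cytokines that are made on viral infection or when nucleic acid appears in the wrong compartment. Type I interferon binds the receptor made of IFNAR1 and IFNAR2 and activates a complex that holds STAT2 and IRF9 and binds the interferon-stimulated response element (ISRE), whereas interferon gamma binds IFNGR1 and IFNGR2 and acts mainly at gamma-activated sites (GAS). The induced genes sense viral RNA, degrade it, block translation or viral entry, and restrain the signal. In the injured kidney such genes are expressed by tubular cells and by infiltrating leukocytes.

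The lists hold positions of peaks only. The measure used here was the cover of a gene, the number of bases within 3 kb of either end of the gene that lay under a peak. The window was 12000 bp long for 40 of the 49 genes and 7155 to 11864 bp for the 9 shortest genes, whose end windows overlapped. A cover says how wide the called peaks were, not how strong the signal was, and read depth is unknown. Peaks per library ranged from 27530 to 45014 for H3K9cr and from 15988 to 32760 for H3K9ac. ACSS2-/- UUO 2 had the fewest H3K9cr peaks (27530). Among the H3K9ac libraries of UUO, ACSS2-/- UUO 2 stood apart with 24571 peaks, against 15988, 18580 and 17271 in the other 3. In 4 of the 14 lists, all from UUO kidneys, the number within the peak names differed from the replicate number of the label. For H3K9cr it was 3 in WT UUO 1 and ACSS2-/- UUO 1. For H3K9ac it was 2 in ACSS2-/- UUO 1 and 3 in ACSS2-/- UUO 2. Peaks on chromosome Y were present in 5 of 8 H3K9cr and 3 of 6 H3K9ac libraries. Acss2 itself had a peak in all 14 libraries, with 799 to 2823 bp covered, which does not check the genotype because a peak at a gene's end may persist after part of the gene is deleted.

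The 250 bases before the start site of 41 of the 49 genes were available from RefSeq (GRCm38.p6), and 6 of them are printed 5′ to 3′ on the strand of the gene, as examples with ISRE matches, GAS matches, both or neither from genes whose cover is described here. Irf4, Oas1a and Oas3 are shown because they lacked H3K9cr peaks in some or all control libraries. Capitals mark matches on either strand to the ISRE, searched as GAAANNGAAA, or to GAS, searched as TTCNNNGAA. The promoter of Irf4, an interferon regulatory factor of lymphocytes and myeloid cells, lies at chr13:30748983-30749232 on the plus strand and holds neither motif. That of Irf1, a factor induced by interferon gamma, lies at chr11:53769764-53770013 on the plus strand with a GAS match starting 90 bases before the start site. Oas1a and Oas3, which encode oligoadenylate synthetases activated by double-stranded RNA, have promoters at chr5:120907526-120907775 and chr5:120777660-120777909, both on the minus strand, the former with a pair of overlapping ISRE matches and a GAS match and the latter with 1 ISRE match. Bst2, or tetherin, which holds budding virus at the cell surface, at chr8:71537473-71537722 on the minus strand, holds 2 overlapping ISRE matches and a GAS match, and Isg15, a ubiquitin-like modifier, at chr4:156200819-156201068 on the minus strand, holds 3 that overlap.
Irf4: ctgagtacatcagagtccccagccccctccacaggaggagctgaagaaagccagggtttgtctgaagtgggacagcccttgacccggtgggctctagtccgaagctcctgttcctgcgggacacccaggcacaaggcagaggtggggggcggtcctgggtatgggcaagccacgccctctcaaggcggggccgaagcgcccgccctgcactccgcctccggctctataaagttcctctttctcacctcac
Irf1: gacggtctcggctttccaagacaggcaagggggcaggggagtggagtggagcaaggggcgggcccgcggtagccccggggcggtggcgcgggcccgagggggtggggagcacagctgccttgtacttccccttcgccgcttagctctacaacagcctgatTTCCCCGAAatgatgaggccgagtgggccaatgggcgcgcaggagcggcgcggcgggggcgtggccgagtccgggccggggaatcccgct
Oas1a: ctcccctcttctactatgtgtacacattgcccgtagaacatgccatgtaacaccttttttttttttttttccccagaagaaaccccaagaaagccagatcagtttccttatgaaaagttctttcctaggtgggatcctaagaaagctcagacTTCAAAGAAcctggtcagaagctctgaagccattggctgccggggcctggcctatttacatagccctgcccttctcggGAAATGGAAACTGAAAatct
Oas3: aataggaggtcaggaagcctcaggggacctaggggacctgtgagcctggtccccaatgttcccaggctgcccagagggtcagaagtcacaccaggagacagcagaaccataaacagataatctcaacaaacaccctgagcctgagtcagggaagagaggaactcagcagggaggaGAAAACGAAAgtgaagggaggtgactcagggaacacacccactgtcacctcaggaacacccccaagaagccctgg
Bst2: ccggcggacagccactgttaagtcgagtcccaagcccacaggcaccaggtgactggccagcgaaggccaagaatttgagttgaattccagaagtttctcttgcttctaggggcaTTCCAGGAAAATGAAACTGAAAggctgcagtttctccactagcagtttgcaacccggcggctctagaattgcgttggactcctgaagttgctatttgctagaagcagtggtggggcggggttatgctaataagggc
Isg15: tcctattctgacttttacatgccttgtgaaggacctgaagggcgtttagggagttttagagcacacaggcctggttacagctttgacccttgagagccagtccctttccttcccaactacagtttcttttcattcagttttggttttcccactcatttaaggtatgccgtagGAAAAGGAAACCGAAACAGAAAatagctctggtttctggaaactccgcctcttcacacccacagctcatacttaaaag

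An ISRE match was found in 17 of these 41 promoters (41.5%), against 823 of 27025 promoters of the same length in the table (3.05%). GAS was matched in 11 of 41 (26.8%), against 1929 of 27025 (7.14%), and 22 of 41 held at least 1 of the motifs. In 8 of the 41 promoters the ISRE matched 2 or more times, partly in overlapping letters, and in 1 an ISRE match overlapped a GAS match. A match describes these letters only. No promoter was in the table for Usp18, Dhx58, Zbp1, Oas2, Mx1, Mx2, Ifi27 and Parp14.

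Peaks of both marks were present at most interferon response genes, with or without UUO. In all 14 libraries 43 of the 49 genes (87.8%) had a peak, and 13538 of the 21746 genes with a peak in 2 or more libraries (62.3%) did. The exceptions were Irf4, Oas1a, Oas2, Oas3, Ifitm1 and Mx1. In control kidneys 46, 45, 45 and 44 of the 49 genes had an H3K9cr peak in WT control 1, WT control 2, ACSS2-/- control 1 and ACSS2-/- control 2. After UUO the numbers were 49 in WT UUO 1, WT UUO 2 and ACSS2-/- UUO 1, and 46 in ACSS2-/- UUO 2. Control and UUO libraries met at 46. Most of the difference of 3.25 genes between their means came from Irf4 and Mx1, with a peak in 0 of 4 control and 4 of 4 UUO libraries, and Oas3, with a peak in 0 of 4 and 3 of 4. For H3K9ac, 45 genes had a peak in each of the 2 control libraries, and 47, 48, 45 and 49 in WT UUO 1, WT UUO 2, ACSS2-/- UUO 1 and ACSS2-/- UUO 2.

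**Figure D1:**
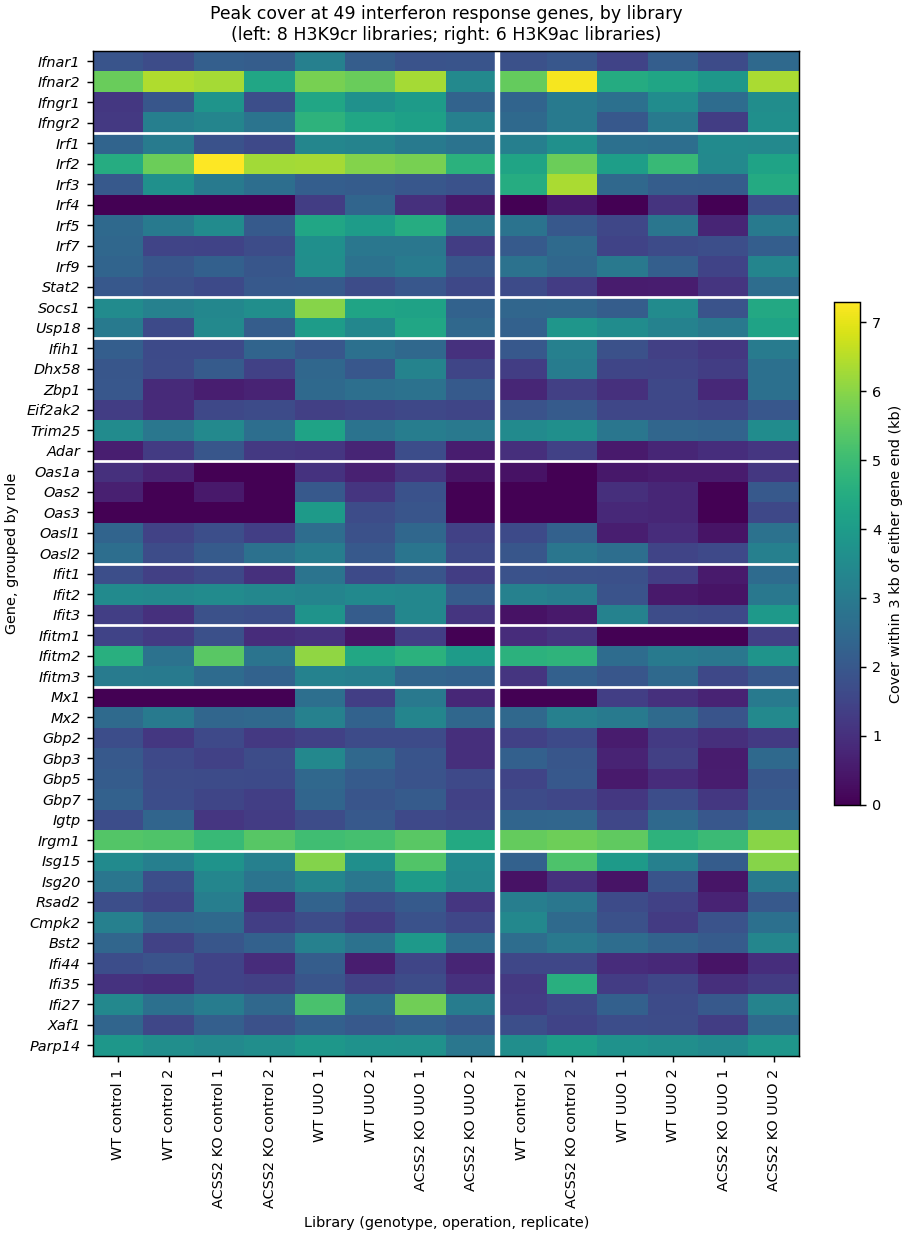
Cover in kb (colour) of the 49 genes (rows, grouped by role and separated by white lines) in the 8 H3K9cr libraries (left of the thick line) and the 6 H3K9ac libraries (right). Most rows are coloured in every column, while Irf4, Oas3 and Mx1 are at 0 in all 4 control H3K9cr libraries, and Ifnar2, Irf2 and Irgm1 are the widest.

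The summed H3K9cr cover of the 49 genes was 107 ± 8.96 kb in control (SD, n = 4) and 129 ± 27.3 kb in UUO libraries (SD, n = 4), with ranges of 97.2 to 117 kb and 93.1 to 156 kb that overlapped. As a share of the cover at all gene ends it was 0.236% to 0.316% in control and 0.316% to 0.401% in UUO. H3K9ac covered 103 and 125 kb in the control libraries and 74.4 to 144 kb in UUO, with shares of 0.251% and 0.277% in control and 0.303% to 0.407% in UUO. Both shares were higher in every UUO than in every control library, by little for H3K9cr, while the summed covers overlapped.

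Around the start site, the 41 genes with a known strand were under a peak far more often than all 27025 genes with a known strand. At 200 bases past the start, 97.0% of the 41 genes were under an H3K9cr peak in UUO (mean of 4 libraries, range 92.7% to 100%), against 40.3% of all genes. In control kidneys the highest H3K9cr share of the 41 genes was 89.6% (range 87.8% to 92.7%), 100 bases past the start. The marks differed in shape upstream. At 1000 bases before the start, H3K9cr peaks covered 36.0% of the 41 genes after UUO (range 19.5% to 53.7%) and H3K9ac peaks 11.6% (7.32% to 14.6%), with no overlap between the 4 libraries of each mark, whereas over all genes the means were 11.4% and 8.92%. In control the same values were 28.0% (19.5% to 36.6%) for H3K9cr and 17.1% (12.2% and 22.0% in the 2 libraries) for H3K9ac, which overlapped. Within the 250 bases before the start, 35 to 38 of the 41 promoters lay under an H3K9cr peak in control and 35 to 40 in UUO, and 31 and 36 under an H3K9ac peak in control and 24 to 40 in UUO, where ACSS2-/- UUO 2 alone reached 40 and the other 3 had 24, 29 and 26. Over all 27025 promoters the share under an H3K9cr peak was 37.6% to 41.9% in control and 35.7% to 40.8% in UUO. For H3K9ac it was 35.5% and 42.0% in control. In UUO it was 26.4%, 29.1% and 27.5% in the same 3 libraries and 36.0% in ACSS2-/- UUO 2, so that this library was also highest over all promoters. No test was made of these shares, as the genes share their libraries.

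**Figure D2:**
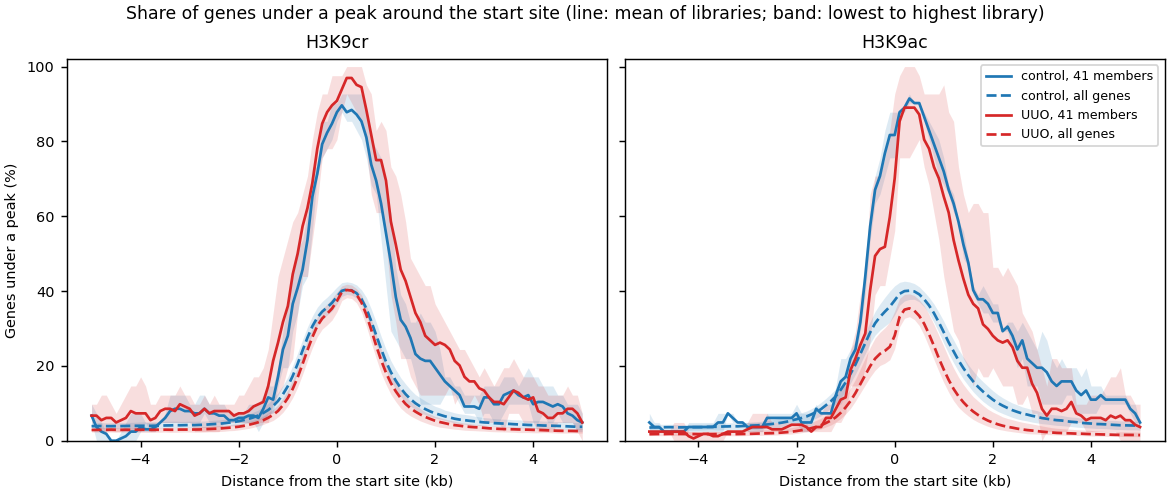
Share of genes (%) under an H3K9cr (left) or H3K9ac (right) peak against the distance from the start site in kb, for the 41 interferon response genes with a known strand (solid) and all 27025 such genes (dashed), in control (blue) and UUO (red); lines are means of libraries and bands run from the lowest to the highest library. The solid lines peak close to the start site above the dashed ones, and H3K9cr reaches farther upstream than H3K9ac after UUO (36.0% against 11.6% at 1000 bases before the start).

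The response to obstruction was compared first, with 4 UUO and 4 control libraries of H3K9cr. The cover rose at 4 of the 49 genes and fell at none (limma, Benjamini-Hochberg adjusted p under 0.05 over 21116 genes). The genes were Irf4, Mx1, Zbp1, which encodes a sensor of left-handed nucleic acid that triggers cell death, and Oas1a. Over all genes tested, 8.73% were called in either direction, 2.44% as higher and 6.29% as lower, so that the 8.16% of the 49 genes called lay near the share of all genes for both directions and above it for higher calls alone. The median difference was 0.20 over the 49 genes and -0.16 over all genes on the log2(cover in bp + 100) scale, the scale of every difference given here, and 37 genes had a positive and 12 a negative difference. At an unadjusted p under 0.05 there were 7 of the 49 genes and 5635 of all 21116, a lower share among the 49. Exact permutation of the 8 libraries called 0 genes after adjustment, since the smallest two-sided p it allows is 0.0286. On simulated data the limma test called unchanged genes far more often than its threshold allows. All of them had peaks in only some control libraries, as Oas1a does, so that the adjusted p of such genes is too small. Genes without a peak in any control library, such as Irf4 and Mx1, could not be called in the simulation. It therefore did not check their adjusted p. In whole kidney, fewer cells of a type and less mark per cell cannot be told apart. Of 13 leukocyte marker genes, 2 to 3 had an H3K9cr peak in control libraries (2.17 to 6.05 kb in all) and 7 to 11 in UUO libraries (12.8 to 39.1 kb), and of 11 kidney tubule markers 11 had one in every control library (30.4 to 50.2 kb) and 6 to 10 in UUO (13.3 to 18.5 kb). The leukocyte markers Ptprc, C1qa, C1qb, C1qc, Tyrobp, Cd3e and Lyz2 passed the same test as higher, and the tubule markers Lrp2, Slc12a1, Slc22a8 and Slc22a6 as lower. The part of these markers in the results at the interferon genes was not tested.

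**Figure D3:**
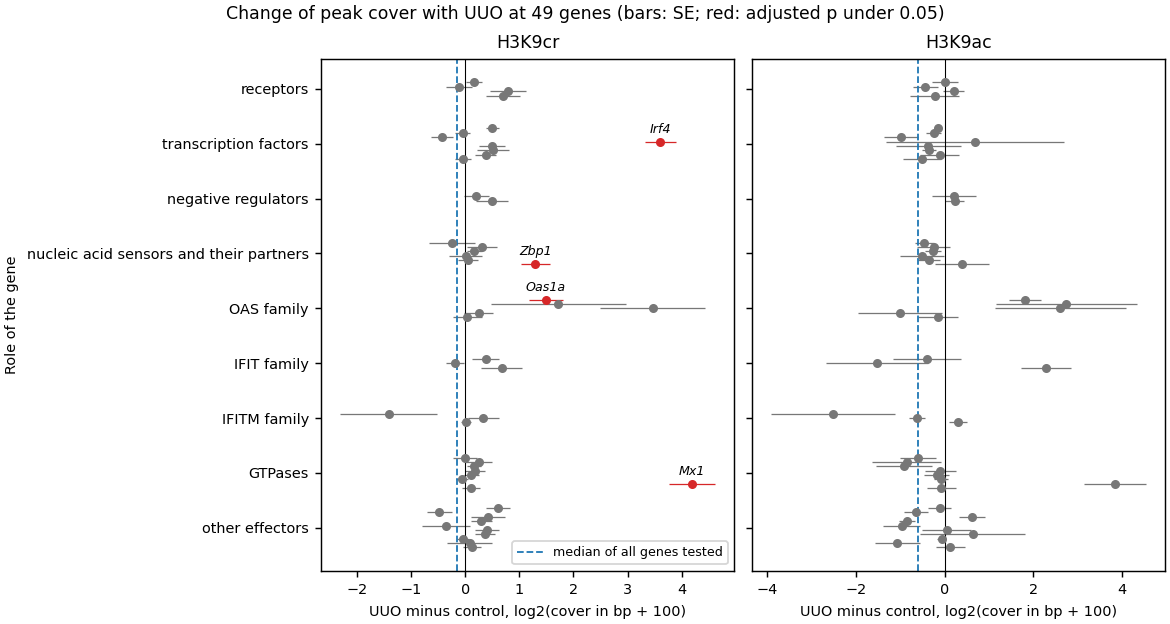
Difference in cover between UUO and control (x axis, log2 of bp + 100, bars are SE) for the 49 genes by role (y axis), for H3K9cr (left, 4 against 4 libraries) and H3K9ac (right, 4 against 2). Red points passed the adjusted threshold, and the dashed line is the median of all genes tested (-0.16 and -0.61). Irf4, Mx1, Zbp1 and Oas1a are red on the left and no gene is red on the right.

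Among the transcription factors, Irf4 (chr13:30749233-30766981, plus strand) had no H3K9cr peak in any of the 4 control libraries, and 1316, 2375, 1020 and 466 bp in WT UUO 1, WT UUO 2, ACSS2-/- UUO 1 and ACSS2-/- UUO 2. All UUO libraries were above all control libraries, and both WT values were above both ACSS2-/- values. Each UUO library had a peak just past or across the start site, such as chr13:30749357-30750672 in WT UUO 1 and chr13:30749272-30749737 in ACSS2-/- UUO 2. WT UUO 2 also had a peak at the other end of the gene, at chr13:30766011-30766801, which held 791 of its 2375 bp. The peaks reached into the printed promoter in 1 of the 4 UUO libraries. The difference with UUO was 3.61 (SE 0.29, limma adjusted p = 0.00214, n = 4 and 4). A peak in all UUO and no control libraries was shared by 150 of 21116 genes (0.71%), and among the 49 genes by Irf4 and Mx1, with 168 genes (0.796%) and 0 of the 49 in the opposite direction. With H3K9ac, Irf4 was covered over 474 bp in ACSS2-/- control 2, 1099 bp in WT UUO 2 and 1758 bp in ACSS2-/- UUO 2 and not in the other 3 libraries, which shows no separation by operation.

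The other 7 transcription factors had H3K9cr peaks in all 8 libraries. Irf2, a repressor and activator at the same sites as IRF1, had the widest H3K9cr cover of the 49 genes, with 4515 and 5648 bp in WT control, 7294 and 6276 in ACSS2-/- control, 6306 and 5933 in WT UUO and 5801 and 4645 in ACSS2-/- UUO. Stat2, a subunit of the type I complex, was among the steadiest, with 2017 and 1819 bp, 1638 and 2044 bp, 2054 and 1691 bp, and 1986 and 1574 bp in the same order. Neither separated UUO from control. Irf1 had 1614 to 3044 bp in control and 2792 to 3348 bp in UUO, a difference of 0.50 (SE 0.12) that did not pass adjustment (limma adjusted p = 0.0698). For the 8 factors together, the differences ran from -0.43 to 3.61, 5 of them positive.

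The receptors, Ifnar1 and Ifnar2 for type I interferon and Ifngr1 and Ifngr2 for interferon gamma, had peaks of both marks in all 14 libraries. H3K9cr at Ifnar2 was 5641 and 6423 bp in WT control, 6313 and 4326 in ACSS2-/- control, 5792 and 5621 in WT UUO, and 6310 and 3428 in ACSS2-/- UUO. The highest value came from a control and the lowest from a UUO library, and the groups overlapped. Differences of the 4 receptors with UUO ran from -0.12 to 0.78, and 0 passed the test, with a smallest limma adjusted p of 0.210. The negative regulators Socs1, which inhibits Janus kinases, and Usp18, which removes ISG15 from proteins, were covered in all 14 libraries too, and their H3K9cr differed by 0.20 and 0.49 with UUO (smallest limma adjusted p = 0.353).

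Of the 6 sensors and their partners, Zbp1 (chr2:173206612-173218959) was covered by H3K9cr over 1988 and 881 bp in WT control, 614 and 734 bp in ACSS2-/- control, 2503 and 2653 bp in WT UUO, and 2746 and 2060 bp in ACSS2-/- UUO. Every UUO library was above every control library, narrowly between WT control 1 and ACSS2-/- UUO 2. The difference was 1.29 (SE 0.27, limma adjusted p = 0.0470), and the call was lost in 11 of 15 alternatives, among them leaving out any of 6 of the 8 libraries. For H3K9ac the values were 792 and 1372 bp in the control libraries and 1025, 1589, 850 and 2685 bp in UUO, which overlapped. The other 5, Ifih1 and Dhx58 (cytoplasmic RNA helicases), Eif2ak2 (the kinase PKR), Trim25 (a ubiquitin ligase of RIG-I) and Adar (an RNA-editing enzyme), differed by -0.25 to 0.31 and were not called.

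Of the 5 genes of the OAS family, Oas1a, Oas2 and Oas3 lacked peaks in some libraries. Oas1a (chr5:120896256-120907544, minus strand) had H3K9cr cover of 1007 and 735 bp in WT control, 0 in both ACSS2-/- control libraries, 1059 and 682 bp in WT UUO and 1104 and 417 bp in ACSS2-/- UUO. The WT values overlapped with and without UUO, and a peak was missing only in ACSS2-/- control. The difference with UUO was 1.48 (SE 0.31, limma adjusted p = 0.0491), but the control and UUO libraries overlapped, exact permutation gave a raw two-sided p of 0.257, and the call was kept in 4 of 16 alternatives. Between genotypes in control kidneys, Oas1a was the 1 gene of the 49 that passed the test, lower in ACSS2-/- (difference -3.27, SE 0.44, limma adjusted p = 0.0449), where 1.15% of all 21116 genes were called, 0.961% as higher and 0.185% as lower. A peak in both WT control and neither ACSS2-/- control library was found at 88 of 19385 genes (0.454%), and at Oas1a alone among the 46 of the 49 genes with a peak in these libraries, while 2.15% of genes and 0 of the 46 showed the opposite. The call held in 5 of 16 alternatives. For H3K9ac, Oas1a was covered over 360 bp in WT control 2, 0 in ACSS2-/- control 2, and 484, 542, 557 and 1185 bp in WT UUO 1, WT UUO 2, ACSS2-/- UUO 1 and ACSS2-/- UUO 2, all 4 above both control libraries.

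Oas2 and Oas3 were named after their values were seen. Their windows overlap by 2789 bp, and 3 H3K9cr peaks, 1 in each of 3 libraries, were counted for both. At Oas3 (chr5:120753098-120777684, minus strand) the H3K9cr cover was 0 in all 4 control libraries and 3981, 1689, 1936 and 0 bp in WT UUO 1, WT UUO 2, ACSS2-/- UUO 1 and ACSS2-/- UUO 2. A peak over the printed promoter, with its ISRE match, was present in 3 of 4 UUO and 0 of 4 control H3K9cr libraries, for instance chr5:120776124-120778703 in WT UUO 1. The difference of 3.46 (SE 0.97) did not pass adjustment (limma adjusted p = 0.0928), and it did without ACSS2-/- UUO 2 or without ACSS2-/- UUO 1. H3K9ac at Oas3 was 0 in both control libraries and 828, 789, 0 and 1591 bp in the UUO libraries in the same order. Oas2 had 635, 0, 487 and 0 bp of H3K9cr in the control libraries and 2048, 1121, 1829 and 0 bp in UUO. In both genes the missing H3K9cr library of UUO was ACSS2-/- UUO 2, which had the fewest peaks. The missing H3K9ac library of UUO was ACSS2-/- UUO 1. Both of these lists have the number 2 in their peak names and 0 peaks on chromosome Y. H3K9cr ACSS2-/- UUO 1 and H3K9ac ACSS2-/- UUO 2 both have the number 3, with 14 and 13 peaks on chromosome Y. Whether lists with the same number came from the same kidney was not tested.

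**Figure D4:**
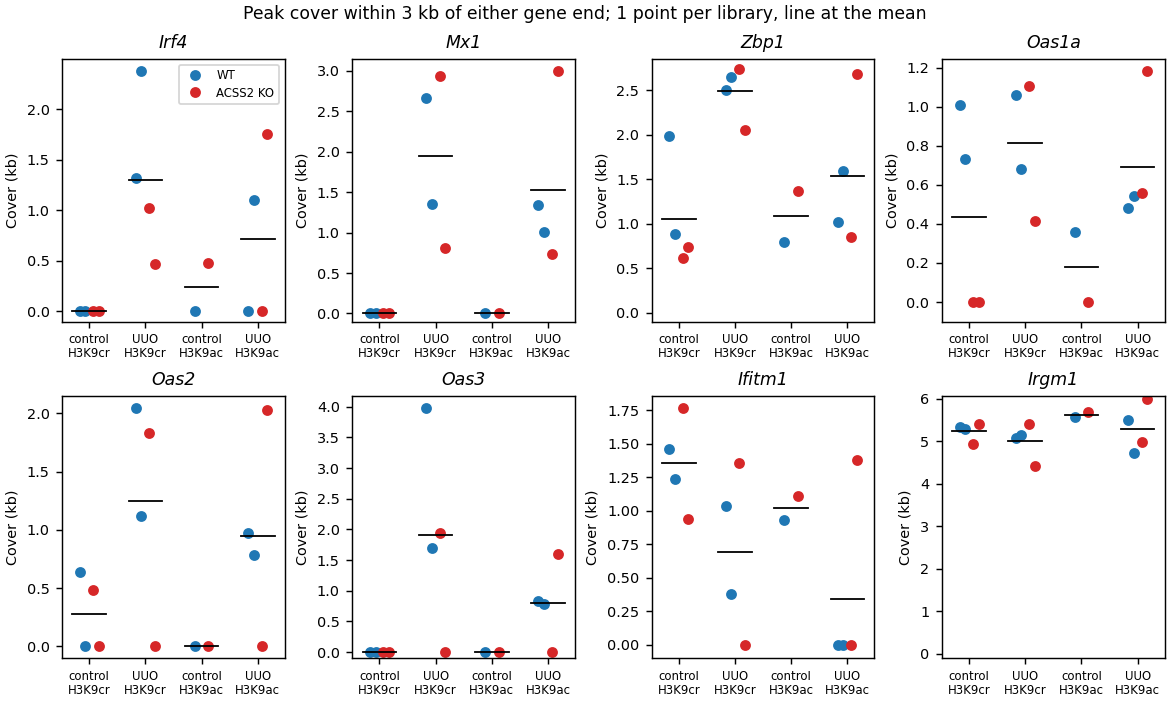
Cover in kb (y axis) of 8 genes by operation and mark (x axis), 1 point per library, WT in blue and ACSS2-/- in red, with a line at the mean of each group. Irf4 and Mx1 rise from 0 in all 4 control H3K9cr libraries, Oas1a is at 0 in both ACSS2-/- control H3K9cr libraries, and Irgm1 lies between 4421 and 5993 bp throughout.

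Mx1 (chr16:97447035-97462906), a gene of the dynamin-like GTPases, was the 1 gene of the 49 whose peaks separated the operations in both marks. H3K9cr cover was 0 in all 4 control libraries, and 2662, 1354, 2941 and 813 bp in WT UUO 1, WT UUO 2, ACSS2-/- UUO 1 and ACSS2-/- UUO 2. The H3K9ac cover was 0 in both control libraries, and 1343, 1010, 739 and 2995 bp in the same UUO libraries. For H3K9cr the replicates of each genotype differed by more than the genotypes did. The peaks lay at one end of the gene, at chr16:97461185-97463846 in WT UUO 1 for H3K9cr and chr16:97461532-97462874 in WT UUO 1 for H3K9ac. The difference was 4.19 for H3K9cr (SE 0.43, limma adjusted p = 0.00486) and 3.84 for H3K9ac (SE 0.70, limma adjusted p = 0.126). A peak in all 4 UUO and neither control library of H3K9ac was found at 28 of 18264 genes (0.153%), Mx1 being the 1 among the 49, while 3.12% of genes and 0 of the 49 showed the opposite.

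Of the other GTPases, which include guanylate-binding proteins and immunity-related GTPases that act on vacuoles of pathogens, Irgm1 had the smallest relative spread of the 49 genes. Its H3K9cr cover was 5339, 5282, 4926 and 5408 bp in the control and 5067, 5147, 5416 and 4421 bp in the UUO libraries, a coefficient of variation of 6.49% over 8 libraries. Mx2, Gbp2, Gbp3, Gbp5, Gbp7 and Igtp were covered in all 14 libraries. The 8 GTPases differed by -0.07 to 4.19 with UUO, 6 of them positive, and only Mx1 was called.

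In the IFIT family, whose proteins bind viral RNA, Ifit2 was steady in H3K9cr with 3496, 3407, 3518 and 3369 bp in control and 3303, 3467, 3371 and 2100 bp in UUO, the last in ACSS2-/- UUO 2. The 3 IFIT genes differed by -0.19 to 0.67. The IFITM proteins block the fusion of viruses with membranes. Ifitm2 had 4611, 2751, 5426 and 2809 bp of H3K9cr in control and 6082, 4384, 4665 and 3996 bp in UUO, which overlapped. Ifitm1, named after its values were seen, had no H3K9ac peak in 3 of 4 UUO libraries, with 935 and 1111 bp in the control libraries and 0, 0, 0 and 1378 bp in WT UUO 1, WT UUO 2, ACSS2-/- UUO 1 and ACSS2-/- UUO 2 (difference -2.51, limma adjusted p = 0.298).

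Among the 10 other effectors, Isg15 had the widest cover, with 3489, 3140, 3734 and 3189 bp of H3K9cr in control and 5936, 3629, 5310 and 3523 bp in UUO. Replicate 1 was above replicate 2 in both genotypes after UUO, and ACSS2-/- control 1 was above 2 of the 4 UUO libraries. Xaf1, a pro-apoptotic protein, and Parp14, a mono-ADP-ribosyltransferase, varied little, with 1547 to 2378 bp and 2895 to 3862 bp over the 8 libraries. The 10 effectors differed by -0.48 to 0.61, 7 of them positive, and 0 passed the test. Bst2 had 1434 to 2399 bp in control and 2567 to 3904 bp in UUO and did not overlap. Cover was higher in every UUO than in every control library at Bst2, Irf4, Mx1 and Zbp1, against 2.36% of all genes, and lower in every UUO library at 0 of the 49, against 13.7% of all genes.

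H3K9ac was then compared between 4 UUO and 2 control libraries. None of the 49 genes passed the limma test over 18264 genes, of which 4.29% were called, 0.0657% as higher and 4.23% as lower. At an unadjusted p under 0.05 there were 5 of the 49 and 4907 of the 18264 genes by limma, a lower share among the 49. Exact permutation could call no gene, because 4 against 2 libraries allow too few splits for an unadjusted p under 0.05. The median difference was -0.18 over the 49 genes and -0.61 over all genes, with 16 genes positive and 33 negative. When each library was centred on its own median, the median of all genes moved to -0.04 and that of the 49 genes to 0.39, with 37 positive, and Mx1 and Oas1a passed, so the direction for the list as a whole depends on the scaling. Cover was higher in every UUO library at Ifi27, Ifit3, Mx1 and Oas1a (0.4% of all genes) and lower in every UUO library at Gbp2, Ifi44, Ifit2, Ifitm2, Irf3 and Rsad2 (48.6% of all genes). Ifit3 had H3K9ac cover of 360 and 488 bp in the control libraries and 3246, 1688, 1624 and 3947 bp in UUO. The 250 bases before its start site, which hold 2 ISRE matches, were under an H3K9ac peak in 0 of 2 control and 2 of 4 UUO libraries. Ifi27 had 1297 and 1576 bp in control and 1661 to 3270 bp in UUO. Leukocyte markers with an H3K9ac peak numbered 4 and 5 of 13 in control and 7 to 11 in UUO.

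The change with UUO was compared between the marks over both genotypes. It differed at 0 of the 49 genes by limma, where 3.1% of 21746 genes were called. An unadjusted p under 0.05 was found at 3 of the 49 and at 3927 of the 21746 genes. The median of the difference, H3K9cr change minus H3K9ac change, was 0.47 over the 49 genes and 0.43 over all genes. Both moved close to 0 when libraries were centred, to 0.06 and 0.03. Within UUO kidneys, H3K9cr cover was above H3K9ac cover at 42 of the 49 genes with a median difference of 0.33, against 0.29 over all genes. Without H3K9ac ACSS2-/- UUO 1 the median was 0.07 with 29 genes positive, and with centred libraries it was 0.18 with 36 positive. The test called 0 of the 49, while 10.4% of all genes were called, 10.1% with more H3K9cr and 0.326% with more H3K9ac cover. An unadjusted p under 0.05 was found at 9 of the 49 and at 5587 of the 21746 genes, a lower share among the 49. The smallest limma adjusted p was 0.0752, at Ifitm3. Ifitm2 was the 1 gene with more H3K9cr than H3K9ac cover in every pair of UUO libraries, against 13.3% of all genes, and 0 showed the opposite (1.6%). No gene of the 49 had a peak of H3K9cr in all UUO libraries and of H3K9ac in none (2.35% of all genes), or the reverse (0.0303%). Without H3K9ac ACSS2-/- UUO 2, which had the most peaks of its group, 9 of the 49 genes were called (Gbp3, Gbp5, Ifit2, Ifitm3, Irf5, Isg20, Oasl1, Stat2 and Zbp1), where 18.0% of all genes were. With the replicate number as a block, 0 of the 49 were called (8.36% of all genes). In paired counts of presence, 44 to 49 of the 49 genes carried both marks in any pair of libraries of the same group, and Irf4, Ifitm1, Oas2 and Oas3 were those with 1 mark alone. In ACSS2-/- UUO, 4 genes had H3K9cr alone in the pair labelled 1, and 3 had H3K9ac alone in the pair labelled 2. In the pairs with the same number in their peak names, 1 gene, Irf4, had H3K9cr alone with the number 2, and 0 genes had 1 mark alone with the number 3.

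The effect of the ACSS2 deletion after UUO was compared with 2 libraries per genotype and mark. For H3K9cr, 0 of the 49 genes passed limma (1.18% of 21116 genes), and 3 had an unadjusted p under 0.05, as did 1546 of the 21116. The difference, ACSS2-/- minus WT, was negative at 41 and positive at 8, with a median of -0.23 over the 49 genes and -0.10 over all genes. These directions rested on ACSS2-/- UUO 2, the library with the fewest H3K9cr peaks, without which 29 genes were positive and 20 negative and the median was 0.08. With all libraries kept and centred, 36 genes were negative and 13 positive. The median was then -0.13 over the 49 genes and 0.004 over all genes. H3K9cr cover of the leukocyte markers was 39.1 and 29.7 kb in the WT and 28.4 and 12.8 kb in the ACSS2-/- UUO libraries. Their H3K9ac cover was 7.54 and 17.6 kb in WT and 10.1 and 34.8 kb in ACSS2-/-, which overlapped. Tyrobp, Cd3e and Lyz2 passed the same test for H3K9cr as lower in ACSS2-/-, while 0 of 33 cell type markers tested passed for H3K9ac. The part of these markers in the values was not tested. Both ACSS2-/- libraries were below both WT libraries at 12 genes (Gbp3, Gbp5, Ifitm3, Ifnar1, Ifngr2, Igtp, Irf1, Irf2, Irf3, Irf4, Parp14 and Socs1; 24.5%, against 26.9% of all genes), and above at Eif2ak2 and Isg20 (8.61% of all genes). No gene of the 49 lost or gained all its H3K9cr peaks with the genotype after UUO (1.85% and 0.756% of all genes). For H3K9ac, 0 of the 49 genes and 0 of 18264 genes (0%) passed limma, with 1 and 1133 at an unadjusted p under 0.05. The median was 0.14 over the 49 genes and 0.23 over all genes, and became -0.10 and -0.01 with centred libraries. The absence of H3K9ac calls did not hold without ACSS2-/- UUO 1, where the median was 0.55 over the 49 genes and 0.47 over all genes. At 6 genes, Adar, Cmpk2, Irf1, Irf7, Oas1a and Stat2, both ACSS2-/- libraries were above both WT libraries (31.4% of all genes), and at Ifi35 below (3.04%). Gains and losses of all H3K9ac peaks with the genotype were found at 2.02% and 0.195% of genes and at 0 of 48 of the interferon genes.

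Whether the H3K9cr response to UUO differed between the genotypes was asked with the interaction in the same model. None of the 49 genes passed (1.64% of 21116 genes did), and 1 had an unadjusted p under 0.05, as did 2323 of the 21116. The median of the difference, ACSS2-/- change minus WT change, was -0.20 over the 49 genes and -0.32 over all genes. The smallest limma adjusted p was 0.146, for Oas1a (2.99, SE 0.63), whose cover was at 0 in ACSS2-/- control. Without ACSS2-/- UUO 2 the interaction at Oas1a was called, and without ACSS2-/- UUO 1 that at Oas3. In control kidneys the genotype difference had a median of -0.03 over the 49 genes and 0.19 over all genes. Both ACSS2-/- control libraries were below both WT control libraries at 9 of 46 genes, Gbp5, Gbp7, Ifi44, Ifitm3, Igtp, Irf1, Mx2, Oas1a and Zbp1 (19.6%, against 5.34% of all genes), and above at 5, Eif2ak2, Ifi35, Ifit3, Ifnar1 and Irf2 (10.9%, against 41.1%).

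Other genes of the pathway, 56 by symbol and 52 of them with enough peaks to test, gave few calls. They include the interferons, Janus kinases, further transcription factors, cytosolic DNA and RNA sensors and other induced genes. With UUO, H3K9cr rose at 0 and fell at 2 of the 52, Mov10 (difference -0.81, limma adjusted p = 0.0322), an RNA helicase, and Ifi44l (-1.25, limma adjusted p = 0.00258). Over all genes, 2.44% were called as higher and 6.29% as lower for H3K9cr. H3K9ac changed at 0 of 50 with UUO, against 4.29% of all genes. In control kidneys, Ifi44l was called higher in ACSS2-/- (1.15% of all genes called). Its H3K9cr change with UUO was also called lower in ACSS2-/- than in WT (1.64% of all genes called), so that its fall with UUO differed between genotypes.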

How the data were processed

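ChIP-seq peak lists of 14 kidney libraries were used, 8 of H3K9cr and 6 of H3K9ac, with groups and replicate numbers taken from the sample titles. Per the labels, the authors aligned paired-end reads with Bowtie2 to mm10 and called peaks with MACS2, separately for each library, and annotated them with ChIPseeker, with versions not given in the sources used here. The deposited files hold chromosome, start, end and name of each peak, with no count, score, strand or depth, so that a deeper library can show more and wider peaks. Genes, start sites and promoter sequences came from RefSeq tables of GRCm38.p6. The members and the other lists were chosen with earlier results of these data known.

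Cover was the number of bases under a peak within 3000 bp of either gene end, computed in Python 3.11.15 (numpy 2.4.6, pandas 2.3.3, matplotlib 3.10.9), with the overlap code checked against bedtools on real lists. It was tested as log2(bp + 100) with limma 3.58.1 in R 4.3.3, over genes covered in at least 2 libraries of the fit, with a mean for each group of genotype, operation and mark and Benjamini-Hochberg adjustment over all genes tested, at a threshold of 0.05. The H3K9cr and H3K9ac libraries were fitted separately except where marks were compared. Gain or loss of a gene's peaks meant a peak in every library of 1 group and in no library of the other. The test was tried on simulated data. Alternatives were a window of 1000 bp, the start site alone, a pseudocount of 500 bp, no filter, libraries centred on their median, the 15988 longest peaks of each library, a replicate block, a term for peaks on chromosome Y, exact permutation, and leaving out each library. Counts of alternatives given for single genes leave out exact permutation.

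Values in every library were given for genes that passed a test, for genes gained or lost, for the 5 widest by mean H3K9cr cover and for the 5 of smallest relative spread among genes covered in every library. Other genes are given by range and count, or are said to have been named after their values were seen. Irf1, Bst2, Ifit3, Ifi27, Ifitm3 and Ifnar1 were also named after their values were seen. Raw reads, input libraries and RNA-seq were not analysed here. A comparison of marks at the other pathway genes is not reported here.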

Additional observations from a re-analysis of the deposited data

Results flagged for a closer look

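Groups held 1 or 2 libraries, too few to test for a library far from the others. Ifnar1 and Irf2 moved in opposite directions with UUO in the 2 genotypes, in every H3K9cr library. Ifnar1 had 1908 and 1684 bp in WT control and 3176 and 2147 bp in WT UUO, but 2214 and 2154 bp in ACSS2-/- control and 1864 and 1895 bp in ACSS2-/- UUO, so that the mean change differed by -1170 bp between ACSS2-/- and WT. Irf2 had 4515 and 5648 bp in WT control and 6306 and 5933 bp in WT UUO, but 7294 and 6276 bp in ACSS2-/- control and 5801 and 4645 bp in ACSS2-/- UUO, a difference of -2600 bp. The interaction did not pass adjustment for Ifnar1 (-0.73, SE 0.30, limma adjusted p = 0.467) or for Irf2 (-0.65, SE 0.28, limma adjusted p = 0.477), on the log2(bp + 100) scale. The number of H3K9cr peaks in a library also ran from 37456 and 45014 in ACSS2-/- control to 27530 and 35638 in ACSS2-/- UUO, and its part in these values was not tested.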

How the results depend on the processing

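For the H3K9cr change with UUO, the 4 calls (8.73% of all genes called) became 2 with a window of 1 kb (6.03%), with no filter (6.65%) and with a Y-linked term (6.13%), Irf4 and Mx1 each time, 2 with the start site alone (Irf1 and Irf4, 7.19%), 2 with equal numbers of longest peaks (Irf1 and Mx1, 8.53%) and 0 by exact permutation (0%). With centred libraries they became 5 (7.66%), Irf1 added. The genes at an unadjusted p under 0.05 went from 7 to 19, and from 5635 to 5192 over all genes. The median went from 0.20 to 0.39 and the positive differences from 37 to 43. Irf4 passed in 15 of 16 and Mx1 in 15 of 15 alternatives fitted with limma, and neither passed exact permutation (adjusted p = 0.178 for each). Leaving out each library in turn gave medians of the 49 genes from 0.09 (without ACSS2-/- UUO 1) to 0.39 (without ACSS2-/- UUO 2). Without ACSS2-/- UUO 1, Ifitm1 passed as lower. For H3K9ac with UUO, 0 calls (4.29% of all genes called) became 2 with centred libraries (Mx1 and Oas1a, both higher, 3.48%). With a Y-linked term they became 1 (Oas3, higher, 5.53%). Without ACSS2-/- UUO 1 or without ACSS2-/- UUO 2, which leaves 1 library in that group, Ifitm1 passed as lower and Oas3 as higher, and the share of all genes called rose too. The median of the 49 genes was -0.001 without ACSS2-/- UUO 1 and -0.37 without ACSS2-/- UUO 2. Between genotypes in control, the call of Oas1a was lost (0) with a 1 kb window, a pseudocount of 500 bp, no filter, longest peaks or a Y-linked term, and 0 to 1 remained with a library left out. It was called only without ACSS2-/- UUO 1 or ACSS2-/- UUO 2. Between genotypes after UUO, the median of the 49 genes without ACSS2-/- UUO 1 was -0.55 for H3K9cr and 0.55 for H3K9ac. In these fits Oas3 passed as lower in ACSS2-/- for H3K9cr and Ifitm1 as higher for H3K9ac, with 1 library left in the group. Without ACSS2-/- UUO 2 it was 0.08 for H3K9cr and -0.28 for H3K9ac. Between marks in UUO, 0 calls became 6 at 1 kb (11.4% of all genes called), 1 at the start site (7.93%), and 0 to 9 with a library left out (18.0% in the fit with 9). With a library left out, the median of the 49 genes ran from -0.49 to 0.05 for the interaction of UUO with genotype. For that of UUO with mark it ran from 0.20 to 0.70. The causes were not tested.

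The mean number of genes with an H3K9cr peak, UUO minus control, was 3.25, and 2 at the start site alone, where 41 genes have one, and 7.75 with the 15988 longest peaks. Centring moved the share of higher calls over all genes from 27.9% to 45.0% for H3K9cr with UUO, from 96.9% to 84.0% between marks and from 68.4% to 51.3% for the change between marks, and turned the median of the 49 genes from -0.20 to 0.11 for the interaction with genotype. Across groups of 1 mark, libraries with the same replicate number did not deviate together in H3K9cr (correlations of -0.09 to 0.09 over 6 pairs of groups). In H3K9ac the 1 pair of groups that could be checked gave 0.12, too few to show pairing. Within a mark, the replicate block is thus read as joining libraries that share only a number. These correlations cannot show whether libraries of the 2 marks came from the same kidney, which was not tested. Between marks, the block joined lists with different numbers in their peak names in ACSS2-/- UUO 1 (3 and 2), ACSS2-/- UUO 2 (2 and 3) and WT UUO 1 (3 and 1). With the replicate block, 3 of the 49 genes were called for H3K9cr with UUO (Irf4, Mx1 and Oas1a), where 6.79% of all genes were. Between genotypes in control 1 was called (0.838% of all genes), and elsewhere 0 (0% to 8.36% of all genes). The calls over all genes for H3K9ac with UUO went from 784 to 0. The depth of the libraries is unknown, which limits any reading of a missing peak.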
